A study of Mus musculus with 6 samples.

Results

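The voltage-gated sodium channel subunits measured here were 7 genes, chosen by name: the alpha subunits Scn1a, Scn2a, Scn3a and Scn8a and the beta subunits Scn2b, Scn3b and Scn4b. They were 7 of 53354 genes in the table, and their 53 annotated isoforms were 53 of 133944. RNA was sequenced from the hippocampi of 6 mice on a C57BL/6 background at 3 months of age. The control mice, N-cre (3 mice), carried Nes-cre, a cre recombinase driven by the nestin promoter, whose activity the study places in the neurons of the hippocampus. The N-cre;Fox1 mice (3 mice) carried the same Nes-cre and, in addition, 1 copy of an Rbfox1 cDNA placed at the Gt(ROSA)26Sor locus behind a CAG promoter and a floxed stop cassette, so that cre turned it on. That allele was made in 129/sv-derived embryonic stem cells and backcrossed to C57BL/6J. The question asked of these genes was whether raising Rbfox1 changed their level, their isoforms or their proportions.

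The alpha subunits form the sodium-conducting pore that drives the action potential. Scn1a encodes Nav1.1, prominent in fast-spiking inhibitory interneurons, Scn2a encodes Nav1.2 and Scn8a encodes Nav1.6, both concentrated at the axon initial segment of excitatory neurons, and Scn3a encodes Nav1.3, which is high in the embryonic brain. The beta subunits are single-pass membrane proteins with an immunoglobulin fold that tune gating and act in cell adhesion. Rbfox1 is an RNA-binding protein that recognises GCAUG in RNA, in introns, where it acts on splicing, and in 3′ untranslated regions.

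The total expected count per mouse ranged from 40463587 to 62141336, and the channel genes took between 0.128% and 0.139% of it. The Rbfox1 gene sum was 15286, 14456 and 14698 normalized counts in N-cre and 15939, 13571 and 15283 in N-cre;Fox1, with a log2 fold change of 0.01 (SE 0.06, edgeR adjusted p = 0.99). Whether reads of the transgene cDNA were counted under Rbfox1 is not given in the sources used here. The counts therefore did not check which libraries carried the transgene, and genotypes are given as labelled. Xist, the RNA of the inactive X chromosome, was at 23514 and 22029 normalized counts in replicate 1 of N-cre and N-cre;Fox1 and between 17.3 and 22.2 in the other 4 mice. The summed markers of choroid plexus, which lies beside the hippocampus, ranged from 1382 to 118070 across the N-cre mice, against 1436 to 265728 for N-cre;Fox1. Of these, Ttr was at 111007 normalized counts in N-cre replicate 3 and 251900 in N-cre;Fox1 replicate 2, and between 274 and 672 in the other mice. The filter on low counts could not check the tissue label. It was passed by 6 of 6 neuron markers, 6 of 6 of pyramidal and granule cells and 6 of 6 of GABAergic interneurons. Markers of other tissue passed it as well: 4 of 4 of thalamus, 6 of 6 of striatum and 4 of 4 of choroid plexus. Summed neuron markers were at 235096 to 251257 for N-cre, against 228046 to 243770 for N-cre;Fox1, and these ranges overlapped. The summed pyramidal and granule cell markers (35433 to 38386 against 32065 to 37843) and interneuron markers (38872 to 42690 against 39898 to 40935) overlapped as well.

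None of the 7 genes passed the test of a difference in total level between the genotypes. The gene sum adds the expected counts of all isoforms of a gene. Scn8a, the most counted, was at 21401, 22637 and 22002 normalized counts in the 3 N-cre mice and at 23365, 21317 and 21818 in the 3 N-cre;Fox1 mice. Scn2a was at 10627, 10506 and 9519.7 in N-cre and at 10229, 9777 and 10211 in N-cre;Fox1. Scn1a was at 4557, 4517 and 4320.2 in N-cre and at 4189.6, 4319 and 4582 in N-cre;Fox1. In each of these the genotypes overlapped. Scn3a was at 1887, 1956 and 1821 in N-cre and at 1875, 1766 and 1946 in N-cre;Fox1, the lowest alpha subunit in every mouse.

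Among the beta subunits, Scn3b was at 16913, 16427 and 16243 normalized counts in N-cre and at 18284, 14268 and 15652 in N-cre;Fox1. Both the highest and the lowest value of Scn3b belonged to N-cre;Fox1 mice. Scn2b was at 15152, 14380.0 and 14169.7 in N-cre and at 14839, 13676 and 14325 in N-cre;Fox1. Scn4b, the beta subunit known for its part in resurgent sodium current, was at 1952, 1606 and 1613 in N-cre and at 1854, 1606 and 1491 in N-cre;Fox1. Replicate 1 of either genotype was the highest of its 3 mice for Scn2b, Scn3b and Scn4b. The mice with high choroid plexus markers, N-cre replicate 3 and N-cre;Fox1 replicate 2, were the lowest of their genotype for Scn2b and Scn3b. They were not the lowest for Scn4b, and a link was not tested.

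The fitted log2 fold changes of the 7 genes, N-cre;Fox1 over N-cre, lay between -0.07 for Scn4b and 0.01 for Scn8a (edgeR quasi-likelihood test, adjusted p 0.96 to 0.99). Their median was -0.03, beside a median of 0.00 over the 18924 genes tested. Of the 7 genes, 0 passed an adjusted p of 0.05, 0 an unadjusted p of 0.05 and 0 had genotypes that did not overlap, while 0.0264%, 6.19% and 12.2% of all genes tested did so. DESeq2 and limma-voom also called 0 of the 7. The 95% interval of the difference ran from -0.09 to 0.11 for Scn8a, from -0.12 to 0.06 for Scn1a, from -0.24 to 0.16 for Scn3b and from -0.32 to 0.19 for Scn4b. The p-values measure the spread among these mice, and in whole tissue fewer cells of a type and less RNA per cell cannot be told apart.

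Levels of different genes were compared per length, as TPM (expected count divided by the annotated isoform length, scaled to the same total in every mouse over all isoforms with a length). The order was the same in all 6 mice. Scn3b led with 179.7 to 225 TPM, followed by Scn2b with 141 to 152, Scn8a with 91.5 to 99.9, Scn2a with 51.9 to 57.8, Scn1a with 25.4 to 29.2, Scn4b with 14.1 to 18.3 and Scn3a with 9.76 to 10.5. No pair of neighbours in that order overlapped over the 6 mice. The beta subunits measured were thus more abundant than the alpha subunits per length, with a ratio of their sums of 1.94 ± 0.07 for N-cre, against 1.90 ± 0.14 for N-cre;Fox1 (SD over 3 mice).

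Scn8a made up about as much of the alpha subunit pool as the other 3 genes together. Its per-length share was 48.5%, 50.6% and 52.3% in the N-cre mice and 52.4%, 50.5% and 49.8% in the N-cre;Fox1 mice. Scn2a held 29.2% ± 1.4 for N-cre, against 29.2% ± 0.14 for N-cre;Fox1 (SD, n = 3). Scn1a held 14.9% ± 0.45 against 14.6% ± 1.1, and Scn3a held 5.35% ± 0.055 against 5.34% ± 0.18 (both SD, n = 3). The largest difference of means among the alpha subunits was 0.416 percentage points, for Scn8a. The exact two-sided permutation test gave p between 0.8 and 0.9 for the 4 alpha subunits, where 3 mice against 3 cannot give less than 0.1.

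Within the 3 beta subunits, Scn3b held 55.7% ± 0.64 of the per-length sum for N-cre, against 55.3% ± 2.1 for N-cre;Fox1 (SD, n = 3). Scn2b held 39.9% ± 0.26 against 40.3% ± 2.1, and Scn4b held 4.41% ± 0.38 against 4.35% ± 0.31 (both SD, n = 3). The exact permutation p was 0.9 for each of the 3 shares and 0.7 for the ratio of beta to alpha subunits. Of these 8 values, 0 separated the genotypes.

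**Figure D1:**
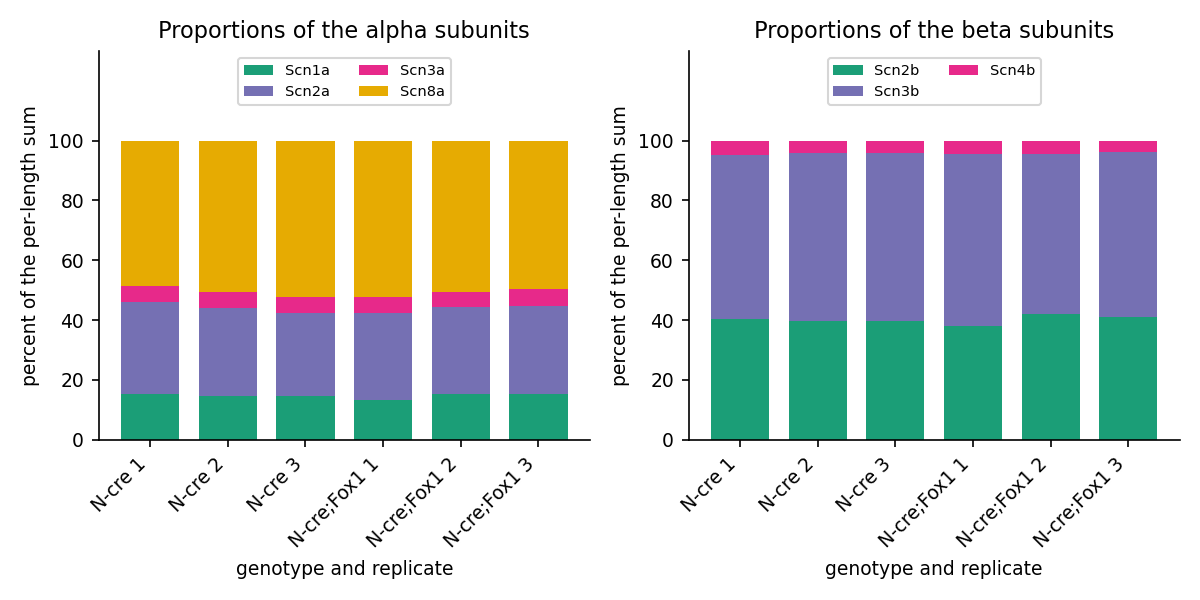
Percent of the per-length sum taken by each alpha subunit (left) and each beta subunit (right) in each mouse. The Scn8a segment spans 48.5% to 52.4% of the alpha subunits and the Scn3b segment 53.5% to 57.5% of the beta subunits across the 6 mice.

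Of the 53 isoforms, 38 had a count above 0 in some mouse, 15 were at 0 in every mouse and 24 passed the filter on low counts. Most genes were carried by 1 or 2 isoforms. Scn2b-202 and Scn4b-201 took all counts of their genes. Scn2a-202 took 97.1% ± 0.62 of Scn2a in N-cre and 99.1% ± 0.30 in N-cre;Fox1, Scn1a-201 took 90.4% ± 1.6 and 89.5% ± 2.7 of Scn1a, Scn8a-205 took 88.3% ± 3.9 and 89.8% ± 0.54 of Scn8a, and Scn3a-202 took 82.2% ± 1.3 and 84.0% ± 2.5 of Scn3a (SD, n = 3 each). Scn3b was the only one of the 7 with a main isoform under 80% of its counts on average.

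Scn2a-201 was the 1 isoform of the 24 tested whose counts did not overlap between the genotypes, beside 11.5% of all isoforms tested. Compared with Scn2a-202 it has an added non-coding first exon of 245 bases at chr2:65620771-65621015 (plus strand, mm10). That exon lies upstream of the shared second exon, which begins at chr2:65670445. The annotated Scn2a-202 begins at that same base and has no first exon of its own. The shares of the 2 isoforms are RSEM estimates and do not measure use of the distal start against the proximal one. Scn2a is also annotated with 2 neighbouring 92-base exons, each in 2 isoforms. Which of them Scn2a-201 and Scn2a-202 hold was not compared. The coding sequence of the isoforms is the same length, 6018 bases. The short Scn2a-204 holds the same distal exon and had between 0.0210% and 0.0955% of the counts of Scn2a. The junction of that exon to the shared exon is shown because reads across it, like reads within the distal exon, tell the distal start from others. The last 15 bases of the distal exon are in capitals, taken from GENCODE M21 (GRCm38), where 2 transcripts hold the junction, Scn2a-201 and Scn2a-204.
Scn2a distal exon junction: TTCCCTTTATTTCAGcactttcttatgcga

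The Scn2a promoters, 47917 bases apart, are shown because Scn2a-201, the isoform that differed, is annotated with the distal first exon. Whether Scn2a-201 also differs from Scn2a-202 in the neighbouring exons described above was not checked. Its counts are therefore not tied to the start alone. RefSeq (GRCm38.p6) gives 2 starts for the gene, and windows were held for 5 of the 7 genes (Scn1a, Scn2a, Scn8a, Scn2b and Scn4b). The 250 bases before the distal start lie at chr2:65620519-65620768 and those before the proximal start at chr2:65668436-65668685, both on the plus strand. The proximal one is the start of the lowly counted Scn2a-209 (retained intron), while Scn2a-205, with a first exon at chr2:65668765-65668814, was at 0 in every mouse. Capitals mark TATAAA on either strand, which 12.4% of the 32851 promoter windows held in the same 250 bases. The proximal window held 1 match and the distal window none.
Scn2a distal promoter: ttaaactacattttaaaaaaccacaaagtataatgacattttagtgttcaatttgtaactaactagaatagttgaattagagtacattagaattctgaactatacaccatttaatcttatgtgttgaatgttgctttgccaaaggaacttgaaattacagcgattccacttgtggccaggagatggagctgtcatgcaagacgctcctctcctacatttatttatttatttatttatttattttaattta
Scn2a proximal promoter: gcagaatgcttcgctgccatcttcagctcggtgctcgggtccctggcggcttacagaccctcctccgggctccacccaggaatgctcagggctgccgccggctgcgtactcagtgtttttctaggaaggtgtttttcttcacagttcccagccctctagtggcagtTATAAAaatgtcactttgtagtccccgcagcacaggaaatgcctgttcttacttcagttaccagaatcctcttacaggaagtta

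Scn2a-201 had 244, 273 and 233 expected counts in the N-cre mice and 79.5, 109.9 and 57.7 in the N-cre;Fox1 mice. Normalized for library size these were 209.9, 324 and 305 against 77.9, 100.2 and 52.0. Every library labelled N-cre;Fox1 was below every N-cre library. As a share of Scn2a the isoform took 1.97%, 3.08% and 3.20% in N-cre and 0.766%, 1.02% and 0.508% in N-cre;Fox1, means of 2.75% ± 0.68 and 0.765% ± 0.26 (SD, n = 3). The exact permutation p was 0.1, the smallest possible. Both isoforms with the distal exon together took 2.03%, 3.18% and 3.24% in N-cre and 0.812%, 1.08% and 0.529% in N-cre;Fox1.

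In the isoform fit Scn2a-201 had a log2 fold change of -1.86 (SE 0.29, 95% interval -2.57 to -1.15), with an unadjusted p of 0.00058 and an edgeR adjusted p of 0.58. It ranked 50 by p among 50556 isoforms, of which 0 passed the adjusted threshold (0% of isoforms), 2419 passed an unadjusted p of 0.05, and limma-voom called 0 and DESeq2 215. DESeq2's Wald test alone called it (adjusted p = 1.9e-05). In the planned test of isoform usage (edgeR diffSpliceDGE, which compares an isoform's change with that of its gene) the log2 difference was -1.84 with an adjusted p of 0.013, and 0.217% of isoforms tested for usage passed. On simulated counts that test made more false calls than its threshold allows, so its adjusted p is too small to be taken at face value. In a test of usage that gives each isoform its own spread, added after seeing the data, the log2 difference was -1.84 with an unadjusted p of 0.0018 and an adjusted p of 0.68, and 0% of isoforms passed.

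The call in the usage test was lost without N-cre replicate 2 (edgeR adjusted p = 0.14), N-cre replicate 3 (0.085), N-cre;Fox1 replicate 1 (0.060) or N-cre;Fox1 replicate 3 (0.20), while the log2 difference stayed between -2.10 and -1.62 with any 1 mouse left out. The mice with high Xist were at 209.9 and 77.9 normalized counts of Scn2a-201 (1 mouse of each genotype) and those with low Xist at 324 and 305 against 100.2 and 52.0. Since the genotypes did not overlap at all, any such split keeps the direction and is no test.

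Some cell type markers also separated these libraries. Of the 5 astrocyte markers 3 had genotypes that did not overlap (beside 12.2% of all genes), with log2 fold changes of 0.38 for Gfap, 0.21 for Aqp4 and 0.10 for Gja1, while Aldh1l1 was at -0.14 and Slc1a3 at -0.02. Gfap was at 24304, 23597 and 22722.5 normalized counts in N-cre and 34277, 28026 and 29773 in N-cre;Fox1 (edgeR unadjusted p = 0.00041, adjusted p = 0.32). The summed level of the 5 was 77968 to 79156 for N-cre, against 82516 to 93303 for N-cre;Fox1. Most of that difference was Gfap. Wfs1, 1 of the 6 pyramidal and granule cell markers, was lower in the libraries labelled N-cre;Fox1 without overlap (11496, 9551.5 and 8801 against 8379, 8437 and 6577, log2 fold change -0.35, edgeR adjusted p = 0.81). So was Adora2a, 1 of the 6 striatal markers (log2 fold change -0.61), while Mobp, 1 of the 5 oligodendrocyte markers, was higher without overlap (0.17). Each was the only such marker of its list, and the remaining marker lists had none, beside 12.2% of all genes. By fitted value 4 of the 6 pyramidal and granule cell markers, 5 of the 6 striatal and 2 of the 5 oligodendrocyte markers were lower. The part of these markers in the Scn2a-201 difference was not tested.

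The complement, Scn2a-202, was at 10412, 10176 and 9195 normalized counts in N-cre and 10129.9, 9662 and 10124 in N-cre;Fox1, with a log2 fold change of 0.01 (95% interval -0.12 to 0.14, edgeR adjusted p above 0.99). Its counts overlapped between the genotypes. Its share did not, at 97.8%, 96.7% and 96.7% in N-cre and 99.1%, 98.8% and 99.4% in N-cre;Fox1, which follows from the share of Scn2a-201. Scn2a-201 was at most 3.20% of Scn2a in any mouse.

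**Figure D2:**
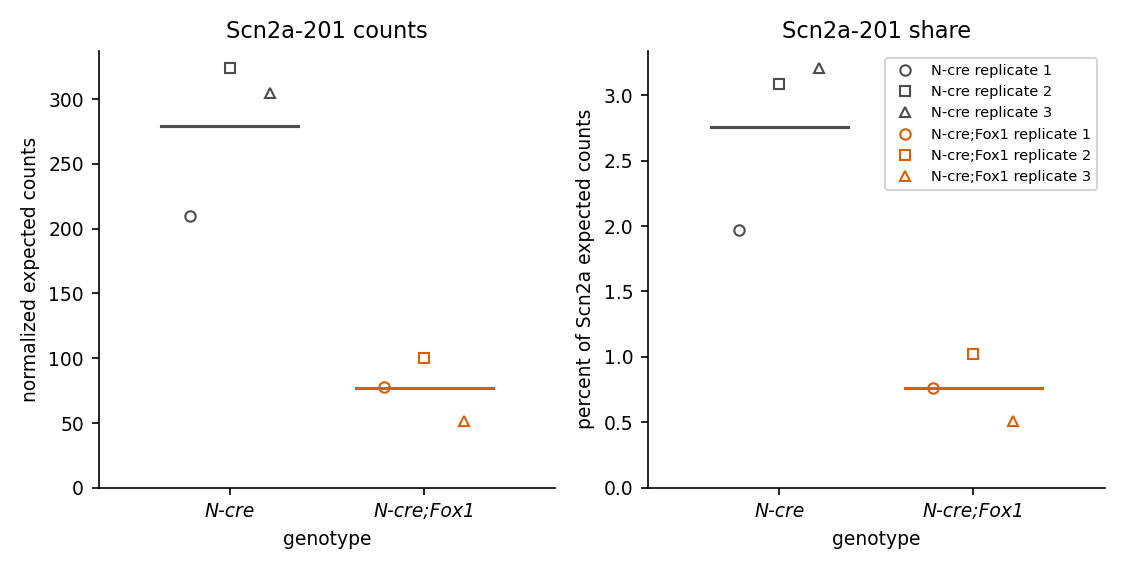
Normalized expected counts of Scn2a-201 (left) and its percent of all Scn2a expected counts (right) in each mouse, with symbols for mice and lines for group means (n = 3). The N-cre mice lie between 209.9 and 324 counts and the N-cre;Fox1 mice between 52.0 and 100.2, with no overlap.

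Scn8a holds a pair of mutually exclusive exons of 92 bases, known in sodium channel genes as the neonatal (5N, upstream) and adult (5A, downstream) forms, which encode part of the voltage-sensing region of the first channel domain. The isoforms with the adult exon dominated in all 6 mice. Isoforms with the upstream exon took 10.1%, 7.63% and 3.61% of the counts of isoforms holding either exon in N-cre, and 4.86%, 6.98% and 5.07% in N-cre;Fox1. The genotypes overlapped (exact permutation p = 0.6), and the widest gap lay within N-cre. Nearly all of this was Scn8a-201, at 2147, 1668 and 759 normalized counts in N-cre and 1107, 1451 and 1071 in N-cre;Fox1 (log2 fold change -0.34, 95% interval -1.24 to 0.56). That value rested on single N-cre mice, at -0.0081 without N-cre replicate 1 and -0.66 without N-cre replicate 3 (edgeR unadjusted p = 0.014, adjusted p above 0.99), and the difference in its share turned from -1.46 to 0.0777 percentage points without N-cre replicate 1. Scn8a-205, with the downstream exon, was at 18188, 19801 and 20347 in N-cre and 20933, 19063 and 19682 in N-cre;Fox1 (log2 fold change 0.03, 95% interval -0.10 to 0.17). Neither isoform passed the test (edgeR adjusted p = 0.99 for both). Scn8a-201 also starts elsewhere, at chr15:100870683 against chr15:100936271 for Scn8a-205. The shares are therefore those of isoforms, estimated by RSEM, and do not measure use of the upstream exon alone.

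A second coding difference in Scn8a is a 30-base extension of a later exon, which adds an in-frame stretch to Scn8a-204. It lies at chr15:100984046-100984075 (plus strand) and is shown because it lengthens the coding sequence from 5934 to 5964 bases.
Scn8a extension, as in Scn8a-204: gtgaaaatagataaggcagctacagacagt
Isoforms with the extension took 4.89%, 4.74% and 3.48% of the counts of isoforms holding either form in N-cre and 5.36%, 3.41% and 4.33% in N-cre;Fox1. The means were 4.37% in both genotypes. Scn8a-204 also differs from Scn8a-205 in its start (chr15:100870904) and its 3′ end, so these shares do not measure use of the extension alone.

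In Scn1a, the isoform Scn1a-208 is annotated as a target of nonsense-mediated decay, the pathway that degrades transcripts with an early stop codon. It holds a 64-base exon at chr2:66293832-66293895 (minus strand) that no other listed Scn1a isoform holds, a length that is not a multiple of 3. The exon is shown because only this isoform holds it. Scn1a-208 also has a start of its own inside a shared exon (chr2:66317804-66317946) and a split 3′ end. Its share is therefore that of the isoform and does not measure inclusion of the exon alone. Count shares are not corrected for length, and Scn1a-208 has 3562 bases against 8116 for Scn1a-201.
Scn1a exon of Scn1a-208: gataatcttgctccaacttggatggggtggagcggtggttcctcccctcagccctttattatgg
Scn1a-208 took 8.67%, 7.93% and 6.81% of Scn1a in N-cre and 4.34%, 9.10% and 7.84% in N-cre;Fox1. N-cre;Fox1 mice gave both the lowest and the highest share, and the log2 fold change was -0.17 with an interval from -0.90 to 0.56. The full-length Scn1a-201 was at 4119, 4164 and 3836 normalized counts in N-cre and 3870.0, 3758 and 4079.6 in N-cre;Fox1 (log2 fold change -0.05, interval -0.17 to 0.07). Scn1a-203 and Scn1a-204, which differ from it in the 5′ part and, for Scn1a-203, in coding length, were at 0 in 3 mice each and at up to 133.5 and 184 normalized counts in the others. Each genotype held mice at 0 and mice above 0 for both. RSEM assigns reads shared by isoforms by estimation, so that such values carry an error that the counts do not show, and reads that the related alpha subunit genes share could be split in the same way.

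Scn3a-201 and Scn3a-202 encode a sequence of equal coding length, 5841 bases, and differ in their untranslated ends and by 1 base at each side of an internal splice junction. Which of the neighbouring 92-base exons annotated in Scn3a each holds was not compared. Scn3a-201 took 17.8% ± 1.3 of Scn3a in N-cre and 16.1% ± 2.5 in N-cre;Fox1 (SD, n = 3), with overlapping genotypes. The log2 fold changes were -0.16 (interval -0.59 to 0.26) for Scn3a-201 and 0.01 (interval -0.10 to 0.12) for Scn3a-202.

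Scn3b had the most even mixture. Scn3b-201 took 57.6% ± 0.65 in N-cre and 59.3% ± 1.8 in N-cre;Fox1, Scn3b-203 took 31.9% ± 0.76 and 30.9% ± 2.2, and Scn3b-202 took 5.95% ± 0.77 and 4.98% ± 0.18 (SD, n = 3 each). All 3 have a coding length of 645 bases. Scn3b-203 keeps a 90-base stretch of the 3′ untranslated region, chr9:40288454-40288543, that the other 2 splice out, and Scn3b-202 starts from another first exon. Over all isoforms annotated across that stretch, the spliced form took 67.9%, 68.1% and 66.8% in N-cre and 71.0%, 66.4% and 68.6% in N-cre;Fox1.

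The share of Scn3b-202 did not overlap between the genotypes, at 5.55%, 6.85% and 5.46% in N-cre and 5.19%, 4.85% and 4.90% in N-cre;Fox1 (exact permutation p = 0.1). Its counts did overlap, at 940.2, 1125 and 886 normalized counts against 948, 692 and 765. The usage test with own spread gave it an unadjusted p of 0.044 and an adjusted p of 0.94. Scn3b-206, whose 4-base shorter exon goes with a coding length of 525 bases, had 1.82% to 2.24% of Scn3b for N-cre, against 2.21% to 2.75% for N-cre;Fox1.

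Over the 24 isoforms tested, 1 passed an unadjusted p of 0.05 and 1 had genotypes that did not overlap, in both cases Scn2a-201, beside 4.78% and 11.5% of all isoforms tested. Of the 22 isoforms in the usage tests, 1 passed an unadjusted p of 0.05 in diffSpliceDGE, beside 2.03% of all, and 3 in the test with own spread (Scn2a-201, Scn2a-202 and Scn3b-202), beside 5.21%. The shares of 3 of these 22 did not overlap, again Scn2a-201, Scn2a-202 and Scn3b-202, beside 11.2% of all isoforms. The shares of Scn2a-201 and Scn2a-202 are complements and count as 1 observation. The 11 isoforms not named above by the rule on share or p, among those tested, had log2 fold changes from -1.23 (Scn8a-209) to 2.04 (Scn1a-203), and together held 4.75% of Scn8a, 4.68% of Scn3b and 2.59% of Scn1a with those under the filter included.

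**Figure D3:**
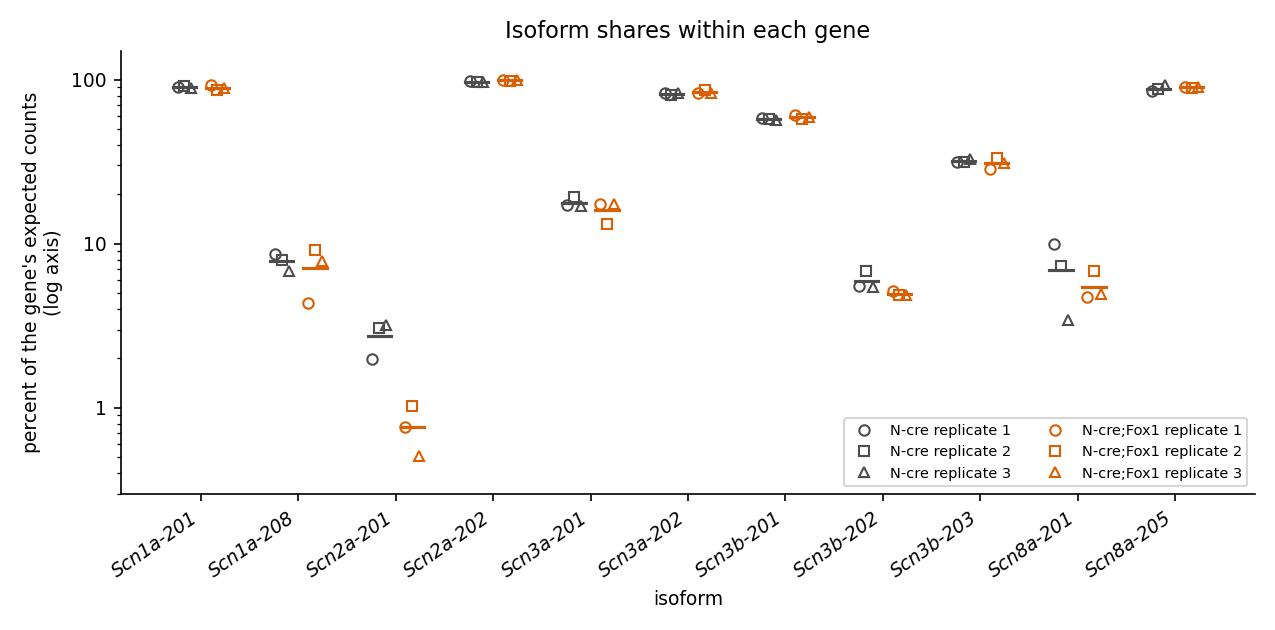
Percent of the gene's expected counts (log axis) for the 11 isoforms named by the rule in genes with more than 1 counted isoform, in each mouse, with bars for group means (n = 3). Scn2a-201 separates the genotypes most widely, at 1.97% to 3.20% for N-cre, against 0.508% to 1.02% for N-cre;Fox1.

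**Figure D4:**
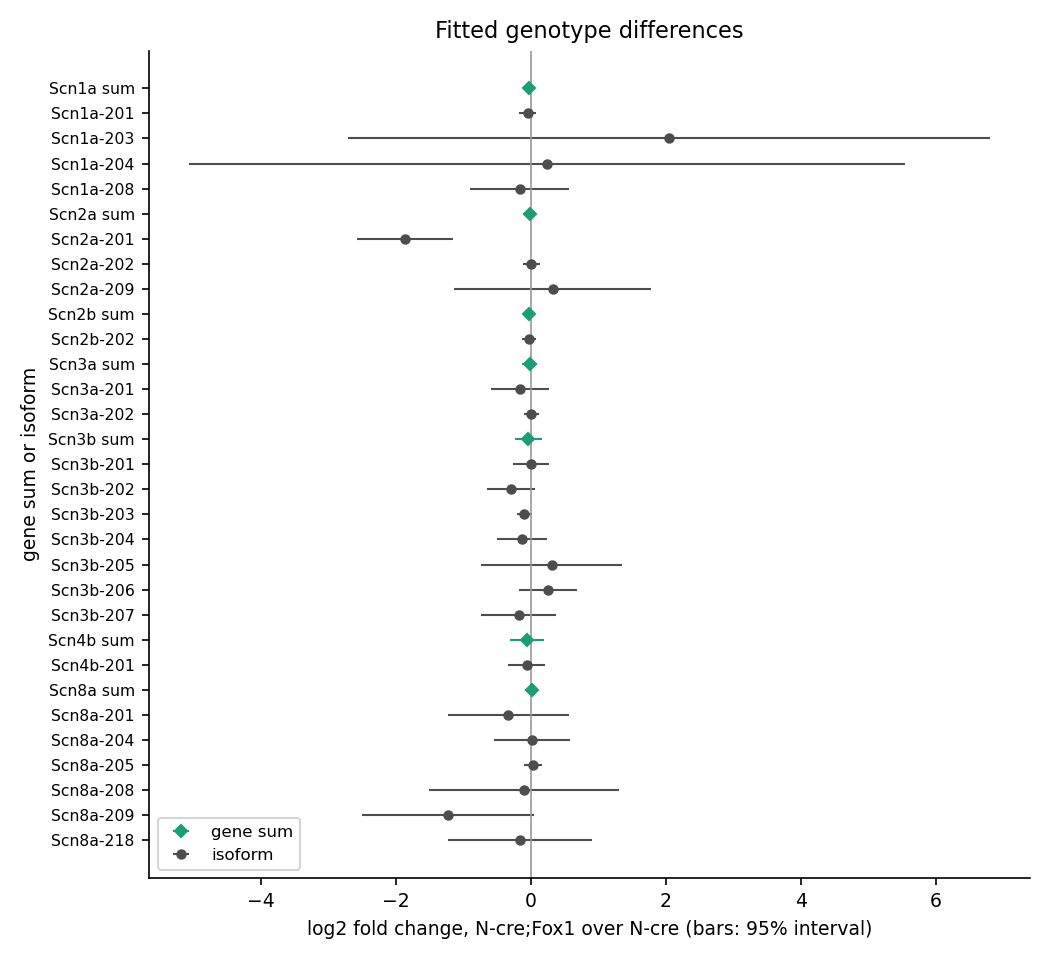
Log2 fold change of N-cre;Fox1 over N-cre for the 7 gene sums and the 24 tested isoforms, with 95% intervals from the edgeR fits. The gene sums lie within 0.07 of 0, Scn2a-201 lies at -1.86 with an interval that does not reach 0, and the widest intervals belong to Scn1a-203 and Scn1a-204.

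The stronger form of the Rbfox motif, TGCATG in DNA letters, was searched on the sense strand of the last 1000 bases of each isoform, where the 3′ untranslated region lies. It was found in 6 of the 13 named isoforms (Scn1a-201, Scn1a-208, Scn2a-201, Scn2a-202, Scn3a-202 and Scn4b-201) and in 27.1% of the 34401 tested isoforms of at least 1000 bases. Scn2a-201 and Scn2a-202 share their 3′ end and held 1 match each there and 5 over the whole isoform. Scn1a-201 and Scn1a-208 overlap at their 3′ ends as well. The 6 isoforms are therefore not independent, and setting them beside 27.1% is no test. Introns were not searched.

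The genes of the wider channel complex were taken from a list of 32: other channel genes, fibroblast growth factor homologous factors (which bind the channel's tail), the scaffold and adhesion proteins of the axon initial segment and node, and binding, ubiquitin and kinase partners. Of these, 29 passed the filter, while Scn4a, Scn10a and Scn11a, channels of muscle and sensory neurons, had at most 11 counts in any mouse. By fitted value 15 were higher and 14 lower, with a median log2 fold change of 0.00. None passed an adjusted p of 0.05 by edgeR, 1 passed an unadjusted p of 0.05 (beside 6.19% of all genes) and 2 had genotypes that did not overlap (beside 12.2%). Cntn1 met both. This adhesion protein of axons, contactin, was at 17639, 17992 and 17357 normalized counts in N-cre and 19264, 19003 and 18127 in N-cre;Fox1 (log2 fold change 0.09, SE 0.04, unadjusted p = 0.043, adjusted p = 0.80). Scnm1, named for not overlapping after its values were seen, was lower in N-cre;Fox1, at 902, 939 and 914 against 947, 949 and 972 (log2 fold change -0.06, adjusted p = 0.93).

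Over the 6 mice, the genes most like each alpha subunit by Pearson correlation of log2 normalized counts, among 13737 genes with a mean of at least 100, were Cpeb1os1 (r = 0.99) and Zfp748 (0.98) for Scn1a, Mcf2 and Gm43079 (both 0.99) for Scn2a, Mboat2 (0.99) and Ap1s1 (0.98) for Scn3a, and Rwdd3 and Ppp1r35 (both 0.98) for Scn8a. With 6 points, all from the same libraries, and the best matches chosen, these values are a description only. Among the members themselves the highest correlation was 0.84, between Scn2b and Scn3b, and the lowest was -0.47, between Scn1a and Scn8a.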

How the data were processed

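Hippocampal total RNA of 6 mice (3 N-cre, 3 N-cre;Fox1) was sequenced from stranded libraries. The authors deposited RSEM expected counts per isoform, which are not normalized. Per the labels' processing notes, cutadapt 1.18, STAR 2.5.2b and RSEM 1.3.0 were used with mm10, and the study's methods name GENCODE M16. Counts that several isoforms or related genes could claim are RSEM estimates. Expected counts were rounded and tested with edgeR 4.0.16 (R 4.3.3): filterByExpr (minimum count 10, total 15), TMM scaling and the quasi-likelihood test, with p-values adjusted over all features by the method of Benjamini and Hochberg. Normalized counts are library-scaled counts (TMM) brought to the mean effective library size. Isoform usage was tested with diffSpliceDGE. Shares and per-length proportions were compared by exact two-sided permutation tests. Isoform lengths and positions came from GENCODE M21 on GRCm38, the same build as mm10; all 53 isoforms matched by identifier and version, as did 130921 of 133944 in the table, and per-length values used only those. Alternatives used DESeq2 1.42.0 and limma 3.58.1. SciPy was used in Python.

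The members and gene lists were chosen with earlier results of these data known. Named were all 7 genes, isoforms with a mean share of at least 5% or an unadjusted p under 0.05 in the isoform or usage fit, partners with an unadjusted p under 0.05 and otherwise the most abundant 3, and the 2 genes most correlated with each alpha subunit. Some items that this rule names are not reported here. Scripts were tested on simulated data, where diffSpliceDGE made more false calls than its threshold allows. The partner lists and the marker lists of neurons, interneurons, pyramidal and granule cells, astrocytes and choroid plexus are given with the results. Of the other marker lists, with 0 genes past the adjusted threshold, the median log2 fold change was 0.00 over 5 oligodendrocyte genes, -0.05 over 3 of their precursors, -0.02 over 4 of microglia, 0.09 over 3 of endothelium, -0.01 over 4 of thalamus and -0.24 over 6 of striatum.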

Additional observations from a re-analysis of the deposited data

How the results depend on the processing

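The 7 gene sums gave 0 calls in all alternatives run: DESeq2's size factors, no filter or a stricter filter on low counts, unrounded counts, a replicate block, DESeq2's Wald test, limma-voom and each mouse left out. The sign of the fitted value turned for 6 of them when 1 mouse was left out, with ranges of -0.066 to 0.013 for Scn2a, -0.025 to 0.040 for Scn8a, -0.053 to 0.0050 for Scn2b, -0.15 to 0.040 for Scn4b, -0.053 to 0.019 for Scn3a and -0.14 to 0.040 for Scn3b. Among isoform counts, leaving out 1 mouse gave -0.13 to 0.098 for Scn3b-201, -0.015 to 0.067 for Scn8a-205, -0.045 to 0.040 for Scn2a-202, -0.014 to 0.021 for Scn3a-202 and -0.37 to 0.10 for Scn1a-208. Scn3b-201 was also at -0.00013 with DESeq2's size factors, -0.00016 in DESeq2's Wald test, -0.0089 with a replicate block and -0.020 in limma-voom, and Scn2a-202 at -0.0012 in limma-voom. DESeq2's Wald test called 1 isoform, Scn2a-201 (log2 fold change -1.87), against 0 in the main test. The usage calls among members went from 1 to 0 with the replicate block (adjusted p of Scn2a-201 0.10), ranged from 0 to 1 with 1 mouse left out, and were 0 in the fit with the gene sum as offset, added after seeing the data, also with the replicate block (Scn2a-201 adjusted p 0.98) and with each mouse left out. Same-numbered mice of the genotypes deviated together with correlations of 0.37, -0.08 and -0.19, so the numbers were not taken as pairs. Over all isoforms the usage test called 92, with 64 under the replicate block, 45 to 199 in its other alternatives and 0 to 1 with the offset. Over all genes the gene fit called 5, with 45 without the filter, 50 by DESeq2 and 2 to 29 with 1 mouse left out, and the isoform fit called 0, with 10 without the filter, 6 with the stricter one, 1 unrounded and 215 by DESeq2. The direction of Scn2a-201 was the same in all fits. Of the 11 isoform shares followed here, which were named by share or p, 3 did not overlap. With 1 mouse left out these were 3 to 5, where smaller groups separate more easily. Since p chose part of the 11, the count to set beside 11.2% of all isoforms is 3 of 22. Scn2a-201 and Scn2a-202, both among the 3, are complements. Proportions that did not overlap went from 0 to 1 of the alpha subunits without N-cre;Fox1 replicate 3 and from 0 to 3 of the beta subunit values without N-cre;Fox1 replicate 1. Leaving out a mouse leaves 2 in its group. Depth limits the rare isoforms: 14 of the 38 counted ones were below the filter.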
